A study of Rattus norvegicus with 46 samples.

Results

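The genes described here are 40 members of the tumor necrosis factor (TNF) superfamily of ligands, its receptors, the Tnfaip genes and the TRAF adaptors, measured in kidneys of male Wister rats. A gene was included if a probe set carried it as its single gene symbol and the symbol was Tnf, began with Tnfsf, Tnfrsf or Tnfaip, or was Traf followed by a digit. This gave 40 of the 17245 genes with a probe set of their own, among 29214 probe sets in all, and each of the 40 had 1 probe set. They comprised 9 ligands, 15 receptors, 3 soluble or decoy receptors, 6 Tnfaip genes, 4 TRAFs and 3 TRAF-interacting proteins. A further 3 probe sets name such a gene together with a second gene and were left out. Tnfsf12, the ligand TWEAK, is on such a shared probe set, so the ligand of Tnfrsf12a was not measured here.

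The 10 groups were naïve rats, uninjured and untreated (n = 5), and rats with ischemia-reperfusion (IR) of the left kidney studied at 3, 24 or 120 h. In the IR groups the renal artery was occluded for 45 min, and the study's methods state that the right kidney was removed on reperfusion, so IR and loss of the other kidney cannot be told apart against naïve rats. By the same methods, 3 h rats stayed under anesthesia until sacrifice, while 24 h and 120 h rats recovered and received buprenorphine. Naïve kidneys were taken right after anesthesia, and the 3 h studies were done before the later ones. Surgery, anesthesia, analgesic and order of work thus also cannot be told apart from injury or time. The IR animals had been injected 30 min before surgery with saline (Vehicle), with the glucocorticoid dexamethasone (Dex, 3 mg/kg) or with the histone deacetylase inhibitor valproic acid (VPA, 150 mg/kg). Groups held 5 animals, except Vehicle at 24 h, Dex at 3 h and 120 h and VPA at 120 h, which held 4. The values are array signals in linear units, and differences are given on the scale log2(signal + 16), with the standard error after the ± sign. A gene was called when its change was at least 2-fold and its limma p, adjusted by the Benjamini-Hochberg method, was under 0.05. The adjustment ran over the 14607 probe sets that varied most across the arrays. Of the 40 genes, 23 were among those 14607 and were tested, and 17 were not.

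TNF superfamily ligands are mostly trimers on the cell surface or shed from it. They bind receptors of which some carry a death domain, as the TNF receptor Tnfrsf1a and the TRAIL receptor Tnfrsf10b do, and recruit adaptors that start either cell death or NF-kB signaling. Other receptors, such as Tnfrsf1b and Tnfrsf12a (Fn14), have no death domain and bind TRAF proteins directly. Decoy and soluble receptors bind ligand without passing on a signal, and osteoprotegerin (Tnfrsf11b) is the secreted receptor that takes up RANKL and TRAIL. In the injured kidney, TNF is known as a product of both leukocytes and tubular cells, and Fn14 as a receptor of tubular cells that appears after injury.

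The promoters of the 3 genes that rose in the most groups are shown so that the start sites of these genes can be compared. Each run is 300 bases, 250 before and 50 after the annotated start, from RefSeq on GRCr8, read 5′ to 3′ on the strand of the gene. Capitals mark the GC box (GGGCGG), the TATA box (TATAAA) and the palindromic GAS motif (TTCNNNGAA), searched on both strands.
Tnfrsf12a, chr10:13213599-13213898, minus strand: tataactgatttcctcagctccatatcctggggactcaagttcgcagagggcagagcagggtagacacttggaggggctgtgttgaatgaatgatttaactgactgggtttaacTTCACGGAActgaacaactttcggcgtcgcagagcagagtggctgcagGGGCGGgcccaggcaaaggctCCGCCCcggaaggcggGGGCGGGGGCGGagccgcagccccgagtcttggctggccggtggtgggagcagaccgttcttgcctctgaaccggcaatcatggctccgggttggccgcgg
Tnfrsf1a, chr4:159836869-159837168, plus strand: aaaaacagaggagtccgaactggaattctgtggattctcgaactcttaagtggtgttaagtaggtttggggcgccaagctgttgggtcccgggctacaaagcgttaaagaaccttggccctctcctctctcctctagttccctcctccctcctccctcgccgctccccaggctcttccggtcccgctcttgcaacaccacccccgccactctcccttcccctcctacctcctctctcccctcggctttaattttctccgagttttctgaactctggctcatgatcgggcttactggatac
Tnfsf18, chr13:76366603-76366902, plus strand: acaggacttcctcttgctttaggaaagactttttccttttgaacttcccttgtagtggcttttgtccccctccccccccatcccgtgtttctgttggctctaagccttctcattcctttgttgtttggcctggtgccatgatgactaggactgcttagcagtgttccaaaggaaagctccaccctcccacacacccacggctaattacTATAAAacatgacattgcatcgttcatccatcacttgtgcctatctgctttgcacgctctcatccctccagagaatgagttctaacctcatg
The Tnfrsf12a window held 4 GC boxes and no TATA box, the Tnfsf18 window held a TATA box at bases 209 to 214 and no GC box, and the Tnfrsf1a window held neither. GC content was 61.3% for Tnfrsf12a, 55.7% for Tnfrsf1a and 48% for Tnfsf18. The median was 52.3% over all 27457 promoters of the table and 55.7% over the 33 of the family in it. Of all promoters, 34.9% held a GC box, 14.3% a TATA box and 8.68% a GAS motif, and the respective shares were 60.6%, 24.2% and 6.06% of the 33 promoters of these genes that the table holds. Searched in the same way, the AP-1 motif (TGANTCA), the NF-kB motif and the CArG box had no match in these 3 windows. A CRE half-site (TGACG) had none there either. NF-kB matches stood in 5 of the 33 promoters (15.2%, against 4.16% of all promoters). The 5 genes were Tnfaip8l1, Tnfrsf8, Tnfsf14, Traf3 and Traf3ip2, of which only Tnfsf14 was tested for expression and none was called. All of the motif matches are letter matches and not measured sites, and Tnfrsf11b and Tnfrsf10b had no promoter in the table.

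The arrays did not all lie closest to animals of their own time. Of the 46 arrays, 8 were nearest to the mean of a group of another time or of the naïve animals. Signal of Havcr1 (KIM-1), the tubular injury marker, was 25.5 to 72 in naïve kidneys and 3350 to 4330 in Vehicle animals 2 to 5 at 120 h, but 17.8 in Vehicle animal 1 at that time. It was 508 in Vehicle animal 1 at 24 h, against 3450 to 4770 in the others of that group, and that array lay nearest the Vehicle animals at 3 h. At 120 h after VPA it was 3950 and 4920 in animals 1 and 4 and 95.7 and 72.5 in animals 2 and 3. It was 756 in Dex animal 4 at 24 h against 3770 to 4380, 17.3 in VPA animal 3 at 3 h against 122 to 440, and 93 in Vehicle animal 1 at 3 h against 396 to 724. The text gives values animal by animal, and the results that rest on the first pair of Vehicle animals are also given without them. Array medians were 64.7 to 87.5 and lower quartiles 19.9 to 37.6. Of the 40 genes, 7, Tnf among them, were below the lower quartile of the array on most of the arrays, and the offset of 16 shrinks their fold changes.

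Against naïve kidneys, receptors and ligands of the family moved in small number, and the same few genes recurred from group to group. Tnfrsf12a rose in 8 of the 9 IR groups, Tnfrsf1a in 7 and Tnfsf18 in 4, while Tnfrsf11b fell in 5. In Vehicle animals 3 genes rose and none fell at 3 h, where 3.18% of all tested probe sets rose and 0.459% fell. At 24 h 3 rose and 1 fell (4.79% and 4.23% of all), and at 120 h 2 rose and 1 fell (1.83% and 1.51%). After Dex 4 rose and 1 fell at 3 h (4.44% and 0.657%), 1 rose and 1 fell at 24 h (2.59% and 2.59%), and 4 rose and 1 fell at 120 h (4.76% and 3.73%). After VPA 3 rose and 1 fell at 3 h (1.43% and 0.459%), and 2 rose and 1 fell at 24 h (5.92% and 3.55%). None was called at 120 h after VPA (0.493% and 0.192%), where 10 of the 40 genes had an unadjusted limma p under 0.05 (16.4% of all 29214 probe sets) and the ordinary analysis of variance also called none. With no fold limit, 8, 10 and 3 of the 23 genes passed in Vehicle animals in the order of time (18.5%, 29% and 13.1% of all tested probe sets), 9, 5 and 10 after Dex (19.8%, 20.4% and 26.8%), and 5, 13 and 0 after VPA (13%, 33% and 1.38%). With so few genes tested, these counts say which genes were called and not that the family stands apart. The 9 comparisons share the same 5 naïve animals and are not independent of each other.

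**Figure D1:**
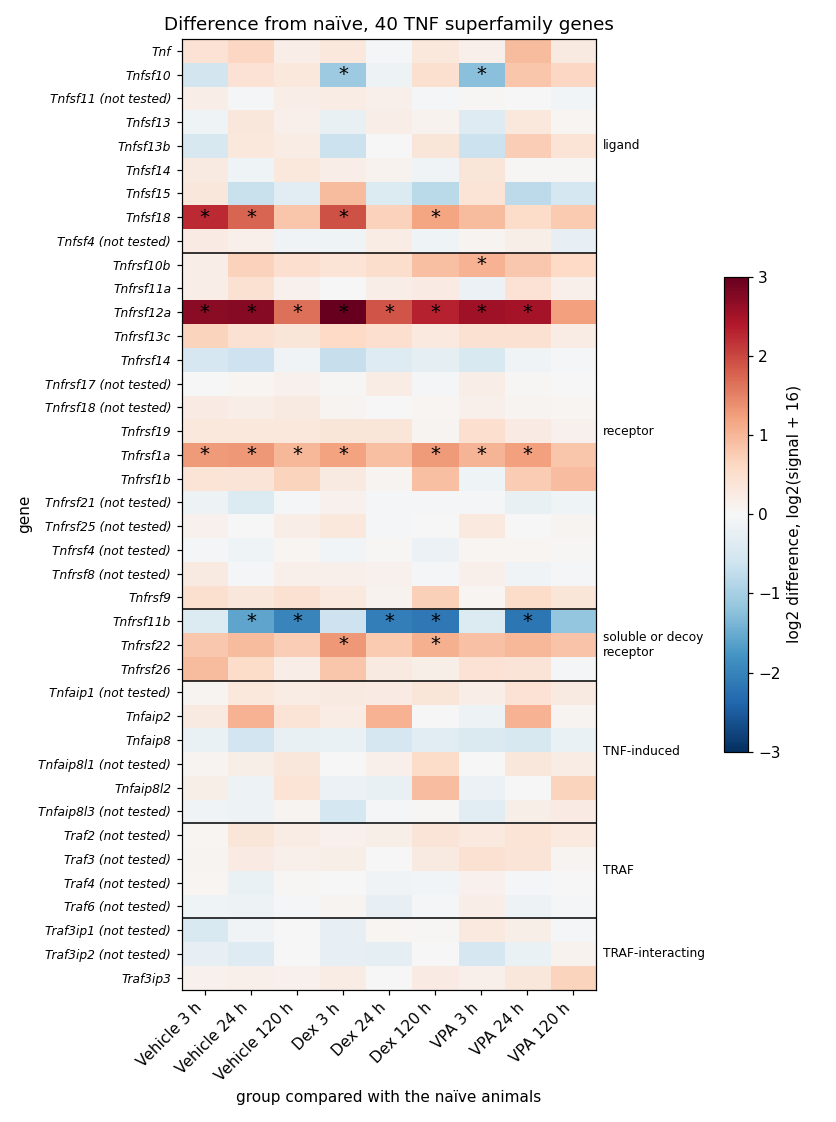
Each row is a gene, grouped by role (TNF-induced stands for the Tnfaip genes), each column an IR group, and color the log2 difference from the 5 naïve animals on the scale log2(signal + 16). Stars mark called genes, genes outside the tested probe sets are marked, and Tnfrsf12a stands out as the row called in 8 of 9 columns.

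Tnfrsf12a encodes Fn14, the receptor of TWEAK. Its signal in the naïve animals was 176, 126, 146, 192 and 106. In Vehicle animals it was 450, 1220, 1240, 1330 and 1360 at 3 h, 1160, 1110, 1010 and 971 at 24 h, and 154, 597, 512, 852 and 723 at 120 h. Vehicle animals at 3 h and 24 h were all above the naïve range, with animal 1 at 3 h lowest, and at 120 h animal 1 lay within that range. The change was 6.53-fold at 3 h (2.71 ± 0.40, adjusted p 4.37e-06), 6.63-fold at 24 h (2.73 ± 0.42, adjusted p 6.79e-05) and 3.16-fold at 120 h (1.66 ± 0.40, adjusted p 0.00855) by limma. Without Vehicle animal 1 of 24 h and of 120 h, the difference at 120 h was 2.06 (adjusted p 3.97e-04).

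After Dex, Tnfrsf12a signal was 1110, 1160, 1550 and 1440 at 3 h, 920, 646, 569, 210 and 909 at 24 h, and 939, 507, 870 and 900 at 120 h. All 13 Dex animals were above the naïve maximum of 192, with animal 4 at 24 h just above it. The log2 differences were 3.02 ± 0.42, 1.88 ± 0.40 and 2.30 ± 0.42 in the order of time (adjusted p 1.12e-06, 0.00128 and 4.71e-04, limma). After VPA, the signal was 1060, 909, 455, 1080 and 1460 at 3 h, 914, 445, 904, 1230 and 1330 at 24 h, and 543, 169, 208 and 865 at 120 h. The VPA group at 120 h held animals 1 and 4 well above the naïve range and animals 2 and 3 within or next to it. VPA gave differences of 2.54 ± 0.40 at 3 h (adjusted p 2.07e-05) and 2.51 ± 0.40 at 24 h (adjusted p 3.33e-05), and 1.22 ± 0.42 at 120 h did not pass (adjusted p 0.0952). Tnfrsf12a was called at 120 h after VPA in the fit without both Vehicle animals 1 of 24 h and 120 h, and 5 genes (Tnfrsf11b, Tnfrsf12a, Tnfrsf1a, Tnfrsf1b and Tnfrsf22) were called there without VPA animal 2, and the same 5 without VPA animal 3.

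Tnfrsf1a encodes the main death domain receptor of TNF, which most cells carry. Naïve signal was 336, 369, 406, 413 and 393. Vehicle animals had 525, 1180, 1020, 1030 and 1240 at 3 h, 847, 972, 971 and 1060 at 24 h, and 395, 923, 878, 950 and 971 at 120 h. Vehicle animal 1 at 120 h was in the naïve range, and every other Vehicle animal was above it. The differences were 1.29 ± 0.25, 1.29 ± 0.26 and 1.01 ± 0.25 (adjusted p 2.08e-04, 5.84e-04 and 0.00999, limma), a change of 2.44-fold, 2.45-fold and 2.01-fold. At 120 h the change was so close to the 2-fold limit that quantile normalization (0.99) and several single left-out animals took it below. Without both Vehicle animals 1 of 24 h and 120 h it was 1.25 (adjusted p 5.23e-04).

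After Dex, Tnfrsf1a signal was 901, 906, 932 and 905 at 3 h, 1020, 715, 686, 432 and 946 at 24 h, and 904, 786, 1090 and 1030 at 120 h. The Dex animals at 3 h ran from 901 to 932 and were all above naïve. Tnfrsf1a rose by 1.22 ± 0.26 at 3 h and 1.27 ± 0.26 at 120 h (adjusted p 5.94e-04 and 9.93e-04), and at 24 h the difference of 0.90 ± 0.25 passed the p-value (adjusted p 0.00832) but was 1.87-fold. Leaving out Dex animal 4 of 24 h (432), the 24 h difference was 1.08 and was called. After VPA, the signal was 719, 861, 589, 874 and 1010 at 3 h, 1010, 630, 966, 1010 and 1030 at 24 h, and 1160, 387, 467 and 1090 at 120 h. At 120 h VPA animals 1 and 4 were above every naïve animal, while animal 2 was in the naïve range and animal 3 just above it, as for Tnfrsf12a. VPA gave rises of 1.03 ± 0.25 at 3 h and 1.22 ± 0.25 at 24 h (adjusted p 0.00357 and 3.18e-04), with 0.83 ± 0.26 at 120 h (adjusted p 0.075). The VPA rise at 3 h was 2.04-fold and fell below the 2-fold limit without naïve animal 1 or VPA animal 4 or 5.

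**Figure D2:**
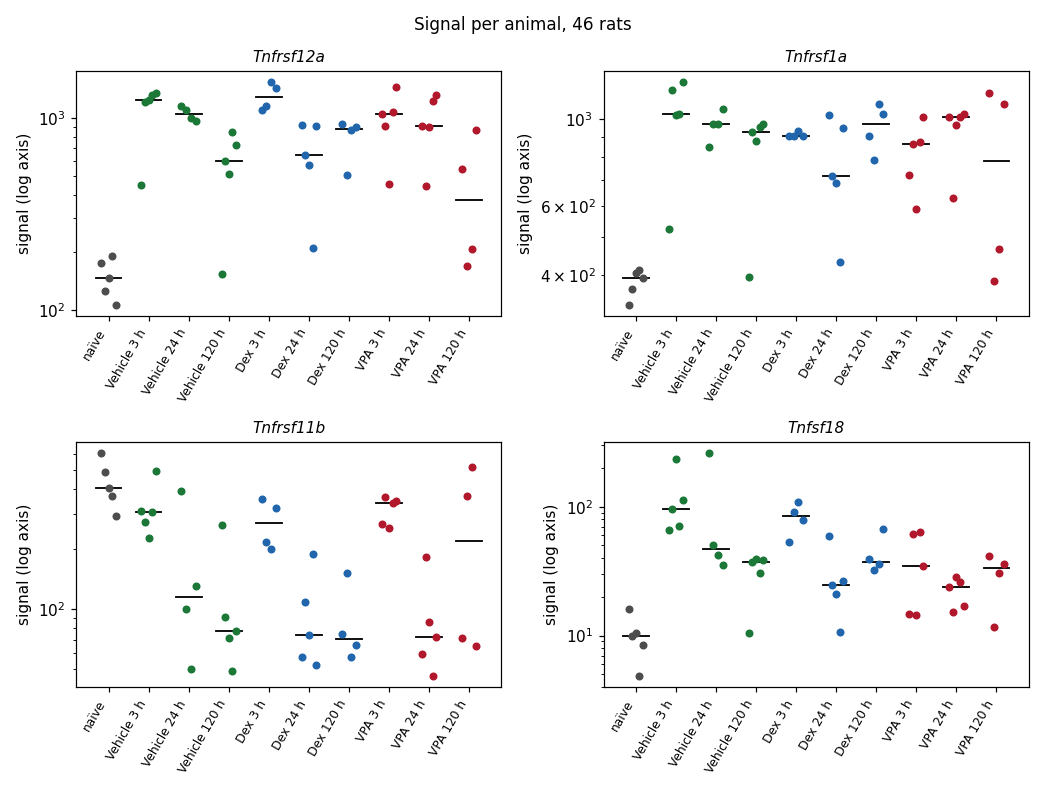
Each point is an animal, the vertical axis is array signal on a log axis, and the short line is the median of the group. In Tnfrsf12a, Tnfrsf1a and Tnfrsf11b the VPA animals at 120 h form a high and a low pair, and Vehicle animal 1 at 120 h lies with the naïve animals or nearest to them.

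Tnfrsf1b, the TNF receptor without a death domain and prominent on leukocytes and endothelium, was not called in any group. Its naïve signal was 133, 127, 158, 129 and 108. In Vehicle animals it was 109, 219, 212, 141 and 244 at 3 h, 142, 222, 178 and 165 at 24 h, and 138, 246, 297, 161 and 296 at 120 h, with overlap at every time. After Dex it was 118, 149, 163 and 231 at 3 h, 172, 118, 141, 121 and 153 at 24 h, and 293, 259, 276 and 212 at 120 h, and after VPA 93.9, 132, 74.6, 121 and 191 at 3 h, 236, 160, 290, 256 and 234 at 24 h, and 313, 132, 156 and 689 at 120 h. VPA animal 4 at 120 h carried the highest value of all 46. Dex animals at 120 h and VPA animals at 24 h were all above the naïve range, with differences of 0.91 ± 0.28 (adjusted p 0.0166) and 0.76 ± 0.27 (adjusted p 0.0256) by limma, both under 2-fold. Of 13 marker genes of macrophages, 9 rose in Dex animals at 120 h, where 4.76% of all tested probe sets rose. The summed signal of these markers there was 6550 to 7800 against 4180 to 5780 in naïve animals. In VPA animals at 24 h 3 of the 13 rose (5.92% of all tested probe sets), with a summed signal of 3800 to 6250. In Vehicle animals at 24 h and 120 h, animal 1 alone lay in the naïve range of Tnfrsf1b (142 and 138), and the others were above it. Of the macrophage markers, 4 rose in Vehicle animals at 24 h and 4 at 120 h (4.79% and 1.83% of all tested probe sets). Their part in the Tnfrsf1b differences was not tested, and in whole kidney fewer cells of a type and less RNA per cell cannot be told apart.

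Tnfrsf10b, the death receptor of TRAIL, had a naïve signal of 63.3, 101, 91.3, 78.3 and 108. After VPA it was 222, 148, 168, 223 and 231 at 3 h, 163, 94, 150, 260 and 200 at 24 h, and 168, 104, 113 and 187 at 120 h. Every VPA animal at 3 h was above the naïve range, and the rise of 2.05-fold (1.04 ± 0.21, adjusted p 5.54e-04, limma) was called, although it dropped below 2-fold without naïve animal 1 or VPA animal 1, 4 or 5. In Vehicle animals the signal was 90.4, 82, 119, 113 and 117 at 3 h, 134, 142, 199 and 136 at 24 h, and 66.8, 173, 131, 154 and 148 at 120 h, and after Dex 95.2, 115, 119 and 158 at 3 h, 190, 113, 119, 96.2 and 170 at 24 h, and 180, 141, 180 and 206 at 120 h. These did not reach 2-fold, and 24 h Vehicle (0.69 ± 0.22, adjusted p 0.0151), 120 h Dex (0.89 ± 0.22, adjusted p 0.00382) and 24 h VPA (0.81 ± 0.21, adjusted p 0.00244) passed the p-value alone.

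Among the remaining 11 receptors, 5 were tested and none was called in any group. Tnfrsf14, the HVEM receptor of lymphocytes, had a median of 311 in naïve, 217 in Vehicle animals at 3 h and 190 in Dex animals at 3 h, where the difference was -0.69 ± 0.18 (adjusted p 0.00401, limma), under 2-fold. Tnfrsf9 (4-1BB), a costimulatory receptor of T cells, had medians of 52.8 in naïve and 99.6 in Dex animals at 120 h, and its animals did not overlap (0.71 ± 0.18, adjusted p 0.00542, limma). Tnfrsf13c (BAFF receptor of B cells) differed by 0.66 ± 0.17 in Vehicle at 3 h (adjusted p 0.00453, limma). No T and NK cell marker was called higher in any group, nor were the 5 B cell markers. The summed signal of the 12 T and NK cell markers was 610 to 703 in naïve animals. At 120 h it was 365 to 1310 in Vehicle, 680 to 1060 in Dex and 608 to 1680 in VPA animals, and it was 431 to 584 in VPA animals at 3 h.

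The soluble and decoy receptors were led by Tnfrsf11b, or osteoprotegerin. Naïve signal was 605, 485, 406, 370 and 293. The Vehicle animals gave 310, 272, 227, 307 and 494 at 3 h, 389, 99.8, 50.2 and 130 at 24 h, and 263, 90.9, 71.6, 49.1 and 77.5 at 120 h. The 3 h animals overlapped the naïve range, and at 24 h animal 1 alone stayed in it. The differences were -0.41 ± 0.43 at 3 h (adjusted p 0.541), -1.58 ± 0.45 at 24 h (adjusted p 0.00751) and -1.99 ± 0.43 at 120 h (adjusted p 0.00461) by limma. Without both Vehicle animals 1 of 24 h and 120 h they were -2.07 at 24 h (adjusted p 2.08e-04) and -2.33 at 120 h (adjusted p 1.71e-04). Without Vehicle animal 3 of 24 h, the lowest of its group, the 24 h difference was -1.20 and was not called (adjusted p 0.0662).

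After Dex, Tnfrsf11b signal was 356, 218, 200 and 323 at 3 h, 57.3, 108, 73.8, 190 and 52.4 at 24 h, and 75.3, 152, 57.6 and 66 at 120 h. All Dex animals at 24 h and 120 h were below the naïve minimum of 293. The falls were -2.08 ± 0.43 and -2.15 ± 0.45 (adjusted p 0.00105 and 0.00116, limma), to 0.236 and 0.225 of naïve. After VPA the signal was 267, 364, 256, 340 and 350 at 3 h, 59.7, 183, 86.4, 46.1 and 72.8 at 24 h, and 71.7, 369, 515 and 65.5 at 120 h. VPA animals at 24 h were all below naïve (-2.17 ± 0.43, adjusted p 2.55e-04, limma), and at 120 h animals 1 and 4 were low while 2 and 3 were in the naïve range (-1.16 ± 0.45, adjusted p 0.129). Of the markers of the loop of Henle and distal tubule, 6 were tested. Some were called lower in the 5 groups where Tnfrsf11b was called lower, and in no other. The called markers numbered 3 in Vehicle at 24 h, 1 at 120 h, 1 and 3 in Dex at 24 h and 120 h and 4 in VPA at 24 h. In the same order, 4.23%, 1.51%, 2.59%, 3.73% and 3.55% of all tested probe sets were called lower in these groups. Umod (uromodulin) was among the called markers each time. In VPA at 120 h none was called, but the median difference was -0.79, beside -0.618 in Vehicle at 120 h and -0.602 in Dex at 24 h. The summed signal of the list was 12000 to 16700 in naïve animals and 3230 to 11400 in Vehicle at 24 h. It overlapped naïve in Vehicle at 120 h (6110 to 13600) and in Dex at 24 h (4670 to 14700). Of the 8 proximal tubule markers, 3 fell in Vehicle and in Dex at 24 h, 2 in VPA at 24 h and 1 in Dex at 120 h, with none in Vehicle at 120 h. Of the 6 collecting duct markers, 2 were called lower in Vehicle at 24 h, 1 in Dex at 120 h and 1 in VPA at 24 h. The part of these lists in the Tnfrsf11b differences was not tested.

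Tnfrsf22 is a decoy receptor for TRAIL in mouse and lies beside the similar gene Tnfrsf26, and whether the probe sets of the pair share signal was not tested, so the call is uncertain. Naïve signal of Tnfrsf22 was 17.6, 6.79, 14.4, 16.9 and 19.7, all below the lower quartiles of the naïve arrays (22.5 to 28.6). After Dex it was 61.6, 36.9, 67.2 and 79.6 at 3 h, 51.7, 34.9, 27.4, 15.8 and 69.6 at 24 h, and 56.4, 41.7, 46.2 and 50.7 at 120 h. The Dex animals at 3 h and 120 h were all above naïve, and the rises of 1.30 ± 0.31 (adjusted p 0.0017) and 1.07 ± 0.31 (adjusted p 0.0102) were called by limma. Without naïve animal 2 the 120 h difference was 0.96, under 2-fold. With an offset of 1 the differences were 1.98 and 1.70, and Tnfrsf22 was also called in Vehicle and VPA animals at 3 h and 24 h and in Dex animals at 24 h. In Vehicle animals it was 13.6, 28.5, 52.8, 47.4 and 63.5 at 3 h, 23.9, 63.9, 43.8 and 47.6 at 24 h, and 15.3, 33.3, 42.3, 44.2 and 50.8 at 120 h, and after VPA 28.3, 42.1, 20.3, 49.4 and 80.2 at 3 h, 35.1, 30.2, 45.1, 67.5 and 56.3 at 24 h, and 58.7, 19.8, 16.8 and 89.4 at 120 h. VPA at 24 h came to 1.00 ± 0.29 (adjusted p 0.0067), just short of 2-fold, and Vehicle at 24 h to 0.94 ± 0.31 (adjusted p 0.0179), which became 1.13 (adjusted p 0.00475) and was called without both Vehicle animals 1 of 24 h and 120 h. Tnfrsf26 had medians of 78.9 in naïve, 183 in Vehicle and 149 in Dex animals at 3 h, with differences of 0.94 ± 0.19 (adjusted p 4.28e-04) and 0.82 ± 0.20 (adjusted p 0.00265) by limma, both under 2-fold.

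Of the ligands, Tnf itself was near the floor of the arrays. Its naïve signal was 16.1, 18, 11.2, 15.2 and 17.4. In Vehicle animals it was 15.7, 66.4, 26.8, 20.9 and 17.7 at 3 h, 25.2, 33.6, 33.8 and 39.9 at 24 h, and 16.3, 14.7, 24.8, 31.9 and 17 at 120 h. After Dex it was 26.5, 19.5, 35.1 and 15 at 3 h, 28.8, 14.2, 15.1, 5.88 and 13.4 at 24 h, and 23.9, 17.6, 29.2 and 22.8 at 120 h, and after VPA 13.7, 22.8, 15, 37.7 and 11.9 at 3 h, 38, 29.5, 44.3, 55.9 and 61.7 at 24 h, and 18, 21.8, 16.5 and 33.7 at 120 h. Vehicle and VPA animals at 24 h were all above the naïve range, and at 3 h Vehicle animal 2 was far above the rest of its group. The differences at 24 h were 0.63 ± 0.21 in Vehicle (adjusted p 0.0225) and 0.95 ± 0.20 in VPA animals (adjusted p 5.23e-04) by limma, under 2-fold on this scale. With an offset of 1 in place of 16, both were called, at 1.04 and 1.47. At 24 h after Dex the difference was -0.04 ± 0.20 (adjusted p 0.907). Set directly against Vehicle at 24 h, Tnf differed by -0.671 after Dex and was not called (adjusted p 0.237, limma).

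Tnfsf18, the ligand (GITRL) of the costimulatory receptor GITR (Tnfrsf18), rose from a dim level. Its naïve signal was 16.1, 9.91, 10.4, 4.84 and 8.41. Signals after Vehicle were 66.4, 95.2, 236, 71.2 and 112 at 3 h, 260, 50.7, 42.5 and 35.1 at 24 h, and 10.4, 37.5, 39.6, 30.8 and 38.5 at 120 h. All Vehicle animals at 3 h and 24 h were above the naïve range, and animal 1 at 24 h, the array nearest the 3 h group, was highest. The change was 4.71-fold at 3 h (2.23 ± 0.34, adjusted p 7.39e-06) and 3.35-fold at 24 h (1.75 ± 0.36, adjusted p 6.26e-04) by limma, with 0.83 ± 0.34 at 120 h (adjusted p 0.0844). Without both Vehicle animals 1 of 24 h and 120 h, the 24 h difference was 1.19 (adjusted p 0.00223), and the 120 h difference was called. All naïve signals of Tnfsf18 were below the lower quartiles of their arrays (22.5 to 28.6), so the folds depend on the offset: with 1 in place of 16 the differences were 3.34 at 3 h and 2.72 at 24 h, and Vehicle at 120 h and VPA at 3 h were also called.

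After Dex, Tnfsf18 signal was 52.9, 91.5, 108 and 79.1 at 3 h, 59.2, 24.5, 21, 10.7 and 26.4 at 24 h, and 39, 32, 35.9 and 67.6 at 120 h. The rises were 1.91 ± 0.36 at 3 h (adjusted p 1.09e-04) and 1.18 ± 0.36 at 120 h (adjusted p 0.0138), the latter not called without Dex animal 4 (1.00, adjusted p 0.064), and at 24 h the difference was 0.70 ± 0.34 (adjusted p 0.136, limma). After VPA the signal was 14.8, 61.4, 14.5, 63.1 and 34.6 at 3 h, 24, 15.3, 28.6, 26.2 and 16.9 at 24 h, and 41.8, 11.7, 30.7 and 35.9 at 120 h. These overlapped the naïve range at every time, and the differences of 0.94 ± 0.34, 0.56 ± 0.34 and 0.79 ± 0.36 did not pass (adjusted p 0.0567, 0.222 and 0.178, limma). Its receptor gene Tnfrsf18 was among the 17 genes not tested.

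Tnfsf10 encodes TRAIL, the ligand that triggers cell death through Tnfrsf10b. Naïve signal was 528, 371, 454, 453 and 543. With Vehicle the signal was 241, 366, 311, 382 and 294 at 3 h, 301, 861, 589 and 1030 at 24 h, and 514, 659, 554, 560 and 665 at 120 h. After Dex it was 306, 149, 262 and 165 at 3 h, 673, 534, 309, 248 and 453 at 24 h, and 599, 609, 748 and 693 at 120 h. At 3 h every Vehicle animal was below the naïve median of 454 and 1 of them overlapped the naïve range at its lower end, while all Dex animals were below the naïve minimum of 371. In Dex animals at 3 h the difference was -1.08 ± 0.29 (adjusted p 0.00503, limma), to 0.471 of naïve, and it fell short of 2-fold without animal 2 or animal 4. After VPA the signal was 120, 254, 164, 276 and 158 at 3 h, 715, 845, 979, 912 and 775 at 24 h, and 740, 463, 514 and 1590 at 120 h. The VPA animals were below naïve at 3 h and above it at 24 h. The 3 h difference was -1.26 ± 0.27 (adjusted p 0.00127), to 0.419 of naïve, and the 24 h difference 0.83 ± 0.27 (adjusted p 0.0156), 1.78-fold and not called (limma). TRAIL and its receptor Tnfrsf10b thus differed from naïve in opposite directions in VPA animals at 3 h. In Vehicle at 3 h the TRAIL difference was -0.54 ± 0.27 (adjusted p 0.169). Set directly against Vehicle at 3 h, TRAIL differed by -0.542 after Dex (adjusted p 0.91) and -0.713 after VPA (adjusted p 0.288, limma). Neither was called.

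**Figure D3:**
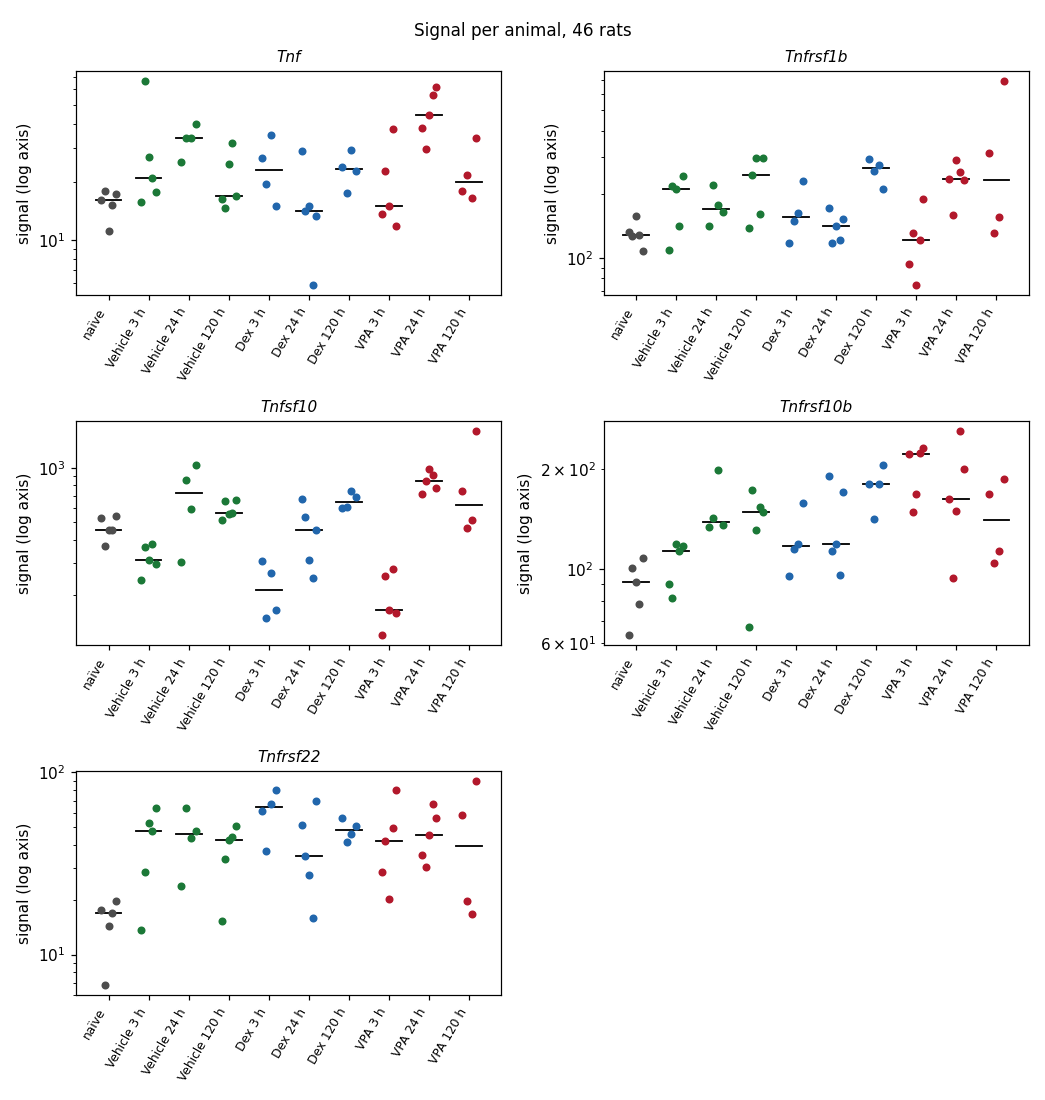
Each point is an animal, the vertical axis is array signal on a log axis, and the short line is the median of the group. Tnf lies mostly under a signal of 40, and the medians of Tnfsf10 are lowest in the Dex and VPA animals at 3 h.

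The other 6 ligands included 4 that were tested, and none was called. Tnfsf15 (TL1A), a ligand of endothelium and myeloid cells, had medians of 257 in naïve, 506 in Dex animals at 3 h and 133 at 120 h after Dex. Its differences were 0.95 ± 0.30 (adjusted p 0.0212) at 3 h and -0.80 ± 0.30 (adjusted p 0.0446) at 120 h by limma, both under 2-fold. Tnfsf13b (BAFF), the survival ligand of B cells, had medians of 74.3 in naïve, 39.1 in VPA animals at 3 h and 106 in VPA animals at 24 h, and its difference at 24 h was 0.75 ± 0.26 (adjusted p 0.0242, limma).

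None of the 6 Tnfaip genes, 4 TRAFs and 3 TRAF-interacting proteins was called. The TRAFs Traf2, Traf3, Traf4 and Traf6, the adaptors that carry the signal of most of these receptors, were all outside the tested probe sets because they varied little over the 46 arrays. Over all probe sets, 7 of the 17 untested genes passed the adjusted p in some comparison but none changed 2-fold, and their widest difference from naïve was 0.551. Tnfaip2, a gene that TNF induces in endothelium, came to 1.04 ± 0.44 in Vehicle at 24 h (adjusted p 0.0733), 1.05 ± 0.42 in Dex at 24 h (adjusted p 0.0684) and 1.03 ± 0.42 in VPA at 24 h (adjusted p 0.0524) by limma and overlapped naïve in the first 2 of these. Tnfaip8, an inhibitor of apoptosis in human cells, differed by -0.57 ± 0.18 in Vehicle at 24 h (adjusted p 0.0148, limma), and Tnfaip8l2 (TIPE2), a regulator of leukocytes, by 0.92 ± 0.32 in Dex animals at 120 h (adjusted p 0.0288, limma).

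Dex and VPA were then compared with Vehicle at the same time, which asks whether the premedication altered the response of these genes. No member was called in any of the 6 comparisons, where 0.171%, 0.116% and 0% of all tested probe sets were called for Dex and 0.0548%, 0% and 0% for VPA at 3, 24 and 120 h. At an unadjusted limma p under 0.05 there were 3, 5 and 0 of 40 genes for Dex (6.18%, 9.18% and 6.39% of all probe sets) and 9, 4 and 1 for VPA (11.7%, 5.56% and 4.6%), and the ordinary analysis of variance called none. The smallest adjusted p-values were those of Tnfrsf10b and Tnfsf18 at 3 h after VPA. Tnfsf18 differed from Vehicle by -1.29 ± 0.34 (95% interval -1.97 to -0.61, adjusted p 0.0634, limma), with every VPA animal (14.5 to 63.1) below every Vehicle animal (66.4 to 236). Over 19 alternatives its adjusted p ran from 0.0131 to 0.289, and it was called without Vehicle animal 1 or 4 or VPA animal 2 or 4 of 3 h, and without both Vehicle animals 1 of 24 h and 120 h. Tnfrsf10b differed by 0.83 ± 0.21 (95% interval 0.41 to 1.25, adjusted p 0.0545, limma), again without overlap, from 148 to 231 after VPA and 82 to 119 after Vehicle.

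At 24 h Tnfsf18 differed from Vehicle by -1.19 ± 0.36 after VPA (adjusted p 0.6) and -1.04 ± 0.36 after Dex (adjusted p 0.267) by limma. Without both Vehicle animals 1 of 24 h and 120 h these were -0.63 (adjusted p 0.965) and -0.48 (adjusted p 0.46), each over 1.5 times smaller, since Vehicle animal 1 at 24 h held the highest signal of its group. The Tnfrsf12a difference between Dex and Vehicle at 24 h was -0.85 ± 0.42, and the groups did not overlap (95% interval -1.70 to -0.0013, adjusted p 0.519, limma). Leaving out Dex animal 4 of 24 h, the lowest of its group with a signal of 210, brought this difference to -0.499. The intervals for Tnfrsf1a ran from -0.60 to 0.46 after Dex and -0.76 to 0.24 after VPA at 3 h, so a difference of 2-fold either way lay outside them. For Tnfrsf11b they were wider, -1.12 to 0.70 after Dex and -0.86 to 0.87 after VPA at 3 h. Traf3ip1, a cilium protein that binds TRAF3, was not among the tested probe sets and differed by 0.77 ± 0.13 between VPA and Vehicle at 3 h (adjusted p 0.00161 over all probe sets, limma), the largest such difference among the 17 untested genes, under 2-fold and with overlap.

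**Figure D4:**
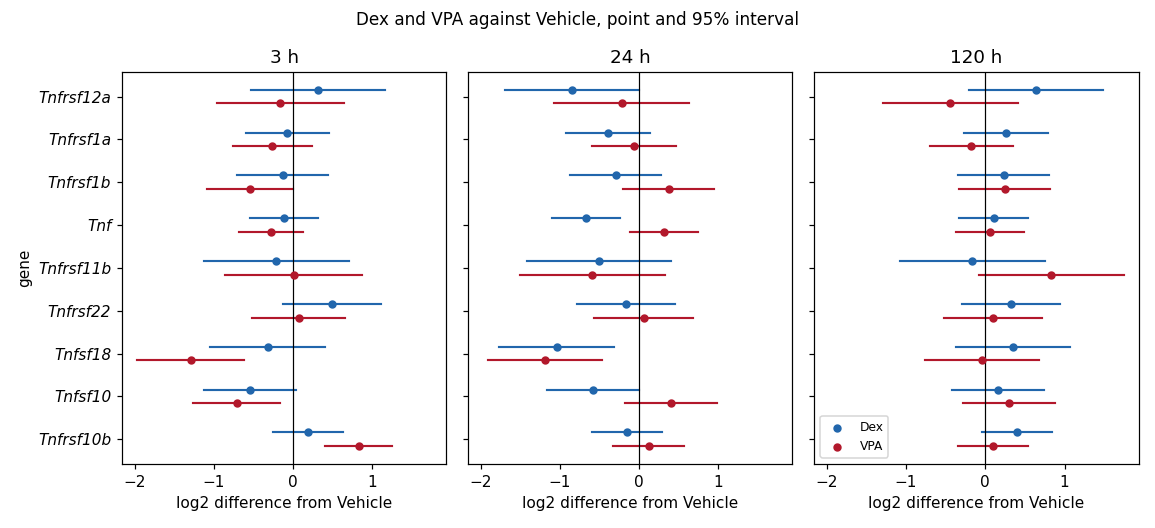
Points are the log2 difference of Dex (blue) or VPA (red) animals from Vehicle animals at the same time, and lines the 95% intervals from limma, before adjustment for the number of genes. At 3 h the VPA intervals of Tnfsf18 and Tnfrsf10b lie farthest from 0, and no gene shown was called.

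Whether a premedication acted differently at different times was tested by the difference of its effects between times. None of the 23 genes passed in the 6 contrasts, where 0.0274%, 0.0479% and 0% of all tested probe sets did for Dex and 0.00685%, 0.00685% and 0% for VPA, and the smallest adjusted p was 0.333 (limma). These were, in order, 24 h with 3 h, 120 h with 3 h and 120 h with 24 h. At an unadjusted limma p under 0.05 there were 1, 1 and 3 of 40 genes for Dex (6.83%, 6.26% and 12.5% of all probe sets) and 8, 7 and 2 for VPA (5.17%, 10% and 3.21%), and the ordinary analysis of variance called none. Of the tested genes, TRAIL had the smallest unadjusted p. Its VPA effect was higher at 24 h than at 3 h by 1.11 ± 0.40 (unadjusted p 0.0073, adjusted p 0.975, limma). Traf3ip1, not among the tested probe sets, had the smallest unadjusted p of the 40 genes. The VPA effect on Traf3ip1 at 120 h minus that at 3 h was -0.825 ± 0.185 (limma p 6.51e-05, not adjusted).

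Genes around the family were counted from lists of the same pathways. A list of 15 genes held superfamily genes with other names, such as Cd40 and Fas, and the adaptor Edaradd. Of these, 7 were tested and Relt, a receptor of lymphoid tissue, was the single one called: it rose 6.29-fold in Dex animals at 3 h (2.65 ± 0.27, adjusted p 3.86e-09) and was 4.33-fold above Vehicle (2.12 ± 0.27, adjusted p 7.57e-06) by limma. Of 26 adaptor, cell death and ubiquitin genes, 11 were tested and 0 to 3 rose per group against naïve, with none falling. The share of all tested probe sets that rose was 0.493% to 5.92% per group. Among the adaptor, cell death and ubiquitin genes, Ripk3, the kinase of necroptosis, rose 2.40-fold in Vehicle at 3 h, 2.97-fold at 24 h and 3.67-fold in VPA animals at 24 h. Ripk3 was also called higher in Dex animals at 3, 24 and 120 h. Birc3 (cIAP2), the ubiquitin ligase of the TNF receptor complex, rose 3.19-fold, 2.91-fold and 2.23-fold in Vehicle at 3, 24 and 120 h. Birc3 was also called higher in Dex animals at 3 h and 120 h and in VPA animals at 3 h and 24 h. Of 13 NF-kB genes, 6 were tested, and Nfkbiz rose in 7 of the 9 groups, by 3.13-fold in Vehicle at 3 h and 4.14-fold in Dex animals at 120 h. Nfkbia, the inhibitor of NF-kB that glucocorticoids are known to raise, rose in Dex animals at 3 h (2.90-fold, adjusted p 3.29e-07, limma) and was 1.67-fold in Vehicle at that time. Between Dex and Vehicle at 3 h Nfkbia differed by 0.79 ± 0.20 (adjusted p 0.0459, limma), under 2-fold and not called.

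Genes that TNF is known to induce were counted as a readout downstream of the receptors, with 19 measured and 17 tested. In Vehicle animals 9 rose against naïve at 3 h, 8 at 24 h and 1 at 120 h (3.18%, 4.79% and 1.83% of all tested probe sets). After Dex 8, 1 and 5 rose (4.44%, 2.59% and 4.76%), and after VPA 6, 7 and 0 (1.43%, 5.92% and 0.493%). Ptgs2 (COX-2) was the single one to fall, in Vehicle and Dex animals at 120 h and in VPA animals at 24 h. At 3 h the rise of Il6 was 5.39-fold in Vehicle animals and 3.13-fold and 3.04-fold after Dex and VPA, and Ccl20, a chemokine, rose 6.19-fold in Vehicle at 24 h. Selp (P-selectin), the endothelial adhesion molecule, rose 9.67-fold in Vehicle at 3 h and 2.81-fold after VPA, and it was the single list gene that differed between VPA and Vehicle at 3 h (-1.78 ± 0.41, adjusted p 0.0332, limma). Between Dex and Vehicle none of the 17 was called at any time, nor between VPA and Vehicle at 24 h and 120 h. The median difference over the 19 genes was 0.925 in Vehicle at 3 h, beside 0.0191 over all probe sets, and 0.154 over the 40 family genes. These genes have many inducers besides TNF. Neutrophil markers moved beside them, with 5 of 10 rising in Vehicle at 3 h and 2 in Dex and 1 in VPA animals at that time. Their summed signal at 3 h was 272 to 658 in Vehicle, 268 to 360 in Dex and 169 to 353 in VPA animals, against 108 to 164 in naïve. The part of these markers was not tested. The neutrophil marker Ngp was below the lower quartile on every array.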

How the data were processed

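Kidney RNA of 46 rats was hybridized to Rat Gene 1.1 ST arrays (Affymetrix), each animal on an array of its own. The authors summarized the scans with iterPLIER in Affymetrix Expression Console 1.1, and the deposited values are linear intensity per probe set, normalized between arrays and without a logarithm or offset. The paper's methods count 44 arrays with some left out, and all 46 deposited arrays were used here. Gene symbols came from the platform table, which gives 1 symbol for 18644 of 29214 probe sets, several for 962 and none for 9608. All 40 genes matched RefSeq by gene ID.

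One linear model over all 10 groups was fitted to log2(value + 16) by limma 3.58.1 (R 4.3.3, with 36 residual and 4.44 prior degrees of freedom). The 14607 probe sets with the lower SD over all arrays were removed before Benjamini-Hochberg adjustment. The 15 comparisons were the 9 IR groups with naïve, and either drug with Vehicle at equal times, and 6 contrasts compared effects between times. The fit was tested on simulated data. Genes called in any comparison, with Tnf, Tnfrsf1a and Tnfrsf1b, are described in full and the others by counts, ranges and examples picked after their values were seen. The genes, lists and motifs were chosen with earlier results of these data known. The GC box, TATA box, CRE half-site and GAS motifs were added after the AP-1, NF-kB and CArG searches had found no match in the 3 promoters printed. Results were recomputed with adjustment over all probe sets, ordinary analysis of variance, quantile normalization, the 2 groups alone, a replicate block, an offset of 1, removal of dim probe sets, no fold limit and each animal left out. The fit without Vehicle animals 1 of 24 h and 120 h was added after the data were seen.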

Additional observations from a re-analysis of the deposited data

Results flagged for a closer look

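Of 90 pairs of a described gene and a group, 9 held an animal far from the rest of its group, measured as the gap to the next animal over the range of the group (Dixon's ratio). Chance flags about 1 in 20 pairs, and genes of the same animal are not independent. For Tnfrsf1a the ratio was 0.768 for Vehicle animal 1 at 3 h (signal 525 against 1020 to 1240) and 0.886 for Vehicle animal 1 at 120 h (395 against 878 to 971). It was 0.868 for VPA animal 2 at 24 h (630 against 966 to 1030) and 0.838 for Dex animal 3 at 3 h (932 against 901 to 906), where the whole group spans a narrow range. For Tnfrsf12a it was 0.902 for Vehicle animal 1 at 3 h (450 against 1220 to 1360) and 0.875 for Dex animal 2 at 120 h (507 against 870 to 939). Tnfsf18 gave 0.842 for Vehicle animal 1 at 24 h (260 against 35.1 to 50.7) and 0.768 for Vehicle animal 1 at 120 h (10.4 against 30.8 to 39.6). Tnfrsf10b gave 0.86 for Vehicle animal 3 at 24 h (199 against 134 to 142).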

How the results depend on the processing

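Counts of called genes against naïve moved by over 1.5 times with no fold limit, to 8 and 10 in Vehicle at 3 h and 24 h, 9, 5 and 10 in Dex at 3, 24 and 120 h and 13 in VPA at 24 h, and with an offset of 1 to 5 in Vehicle at 3 h and 5 in VPA at 24 h. Without both Vehicle animals 1 of 24 h and 120 h, 1 gene was called in VPA at 120 h and 1 between VPA and Vehicle at 3 h. Leaving out each animal in turn gave 3 to 5, 3 to 6 and 2 to 4 genes in Vehicle at 3, 24 and 120 h, 4 to 6, 2 to 4 and 4 to 6 in Dex, 2 to 6, 3 to 5 and 0 to 5 in VPA, 0 to 1 between VPA and Vehicle at 3 h and 0 to 0 in the other comparisons of treatments or times. The replicate numbers did not pair the animals: deviations of same-numbered arrays had a mean correlation of 0.0142 (-0.703 to 0.583), and 8 of 46 arrays were most alike one of their own number. With the replicate block, 5 genes were called in Vehicle at 24 h, where 4 were called without it (Tnfrsf22 was added), and no other call changed. Of the single differences under the alternatives, 979 kept their side of the threshold, 19 were no longer called, 37 became called and 0 changed sign. Part of the 37 follows from the setting with no fold limit, which by definition calls every difference that passed the p-value under 2-fold. For the other moves the cause was not tested. The number of arrays and the low signal of Tnf, Tnfsf18 and Tnfrsf22 limit the precision.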
